A study of Mus musculus with 282 samples.

Results

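Expression in the whole hypothalamus was compared between 3 male CBA/J mice and 3 male C57BL/6J mice, together 6 of the 282 mice of the Hybrid Mouse Diversity Panel sequenced here. The mice were taken by the strain named in their labels, and no measured value entered the choice. Both are inbred strains with no transgene and no drug, all 6 mice were fed the same high fat diet, and the labels give no age. One library was made per mouse, and the values are FPKM (fragments scaled to the length of the transcript and to the mapped fragments of the library), which do not give the depth in reads. The 3 mice of a strain share 1 inbred genotype, so a difference of genotype and one of cage, litter or dissection between the groups cannot be told apart.

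The hypothalamus sets hunger, energy expenditure, stress and reproduction through small groups of neurons, each known by the peptide it releases. Arcuate neurons that make Agrp and Npy raise food intake, arcuate Pomc neurons lower it, and neurons of the lateral hypothalamus make Hcrt (orexin) or Pmch. Around the neurons lie oligodendrocytes, which wrap axons in myelin, astrocytes, and microglia, the resident immune cells of the brain. CBA/J and C57BL/6J carry different haplotypes of the H2 region, the major histocompatibility complex (MHC) of the mouse, known as k in CBA/J and b in C57BL/6J. The mm10 genome to which all reads were aligned is itself a C57BL/6J genome, so reads of C57BL/6J were placed on their own sequence and reads of CBA/J on that of another strain.

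Hypothalamic markers were present in all 6 libraries. The sum of 11 of them was 1191, 1301 and 1723 FPKM in the CBA/J mice and 1641, 1239 and 1312 FPKM in the C57BL/6J mice, and none of them passed the test described next. Tissue that borders the hypothalamus differed between libraries. The summed level of 6 anterior pituitary markers was 24.5, 87.3 and 96.8 FPKM in CBA/J and 5.59, 3.64 and 3.20 FPKM in C57BL/6J, with a panel median of 25.8 FPKM. The sum of 5 thalamus markers was 251, 231 and 296 FPKM in CBA/J and 141, 219 and 204 FPKM in C57BL/6J. The sum of 5 choroid plexus markers was 1422 FPKM in C57BL/6J replicate 3 and between 14.5 and 179 FPKM in the other mice. None of the pituitary, thalamus and choroid plexus markers passed the test. All 6 pituitary markers had a log2 difference above 0, with no overlap between the strains for 5 of them, and a fit of the 6 mice alone called 2 pituitary markers and 1 thalamus marker higher in CBA/J. The part of such tissue in the results below was not tested. In whole tissue, fewer cells of a type and less RNA per cell cannot be told apart.

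Of 14079 genes tested, 1035 differed between CBA/J and C57BL/6J at an adjusted p under 0.05 (limma's moderated test on log2(FPKM + 1), Benjamini-Hochberg over all genes), which is 7.35% of those tested. Of these, 434 genes were higher in CBA/J (3.08% of those tested) and 601 lower (4.27%). The test took the spread within strains from 281 mice of the panel. The 3 and 3 values did not overlap for 980 of the 1035 genes, against 22.3% of all genes tested. The test used these same values, so the non-overlap of called genes is a description and no separate evidence. Most differences were modest, with a median size of 0.58 on the log2 scale among the 1035 genes and 0.13 among all genes. A difference of at least 1 log2 unit was found at 226 of them, 122 higher and 104 lower in CBA/J. The median difference over all genes was 0.01. A single gene name belonged to 752 of the 1035 genes, and 243 lay at loci without a name.

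**Figure D1:**
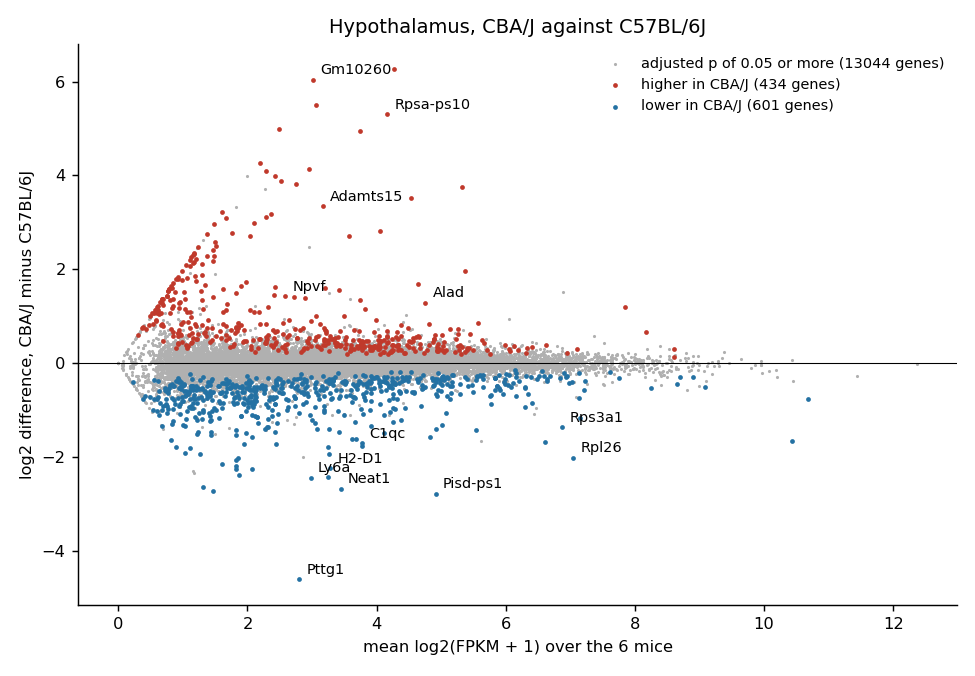
Each point is 1 of 14079 genes, with the mean log2(FPKM + 1) of the 6 mice on the horizontal axis and the log2 difference, CBA/J minus C57BL/6J, on the vertical axis. The 434 genes higher and the 601 lower in CBA/J are coloured and the rest are grey, and among singly named genes the differences run from -4.61 for Pttg1 to 6.04 for Gm10260.

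Adamts15, a secreted metalloprotease that cuts proteoglycans of the extracellular matrix, was among the largest rises, and none of its 50-base windows occurred in another gene. Adamts15 (chr9:30899155-30922549, mm10) stood at 27.2, 24.8 and 31.1 FPKM in the CBA/J mice and at 1.75, 1.97 and 1.74 FPKM in the C57BL/6J mice. The strains lay far apart, with little spread within either. The mean was 15.2-fold higher in CBA/J, a log2 difference of 3.34 (SE 0.16, adjusted p = 3.7e-46, limma). AA465934, a noncoding transcript, had 36.5, 45.6 and 47.2 FPKM in CBA/J and 6.04, 4.69 and 5.003 FPKM in C57BL/6J, a log2 difference of 2.82 (SE 0.25). Many of the other large rises were of copied genes. Of the 15 largest among singly named genes, 8 carried a pseudogene type in the GENCODE M21 annotation, in which not all were matched, and for 10 over 50% of these windows, which have the length of a read, also occurred in another gene. Such shared sequence was found for 150 of 10915 singly named genes matched in M21 (1.37%), and for 18 of the 274 that were higher in CBA/J (6.57%).

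**Figure D2:**
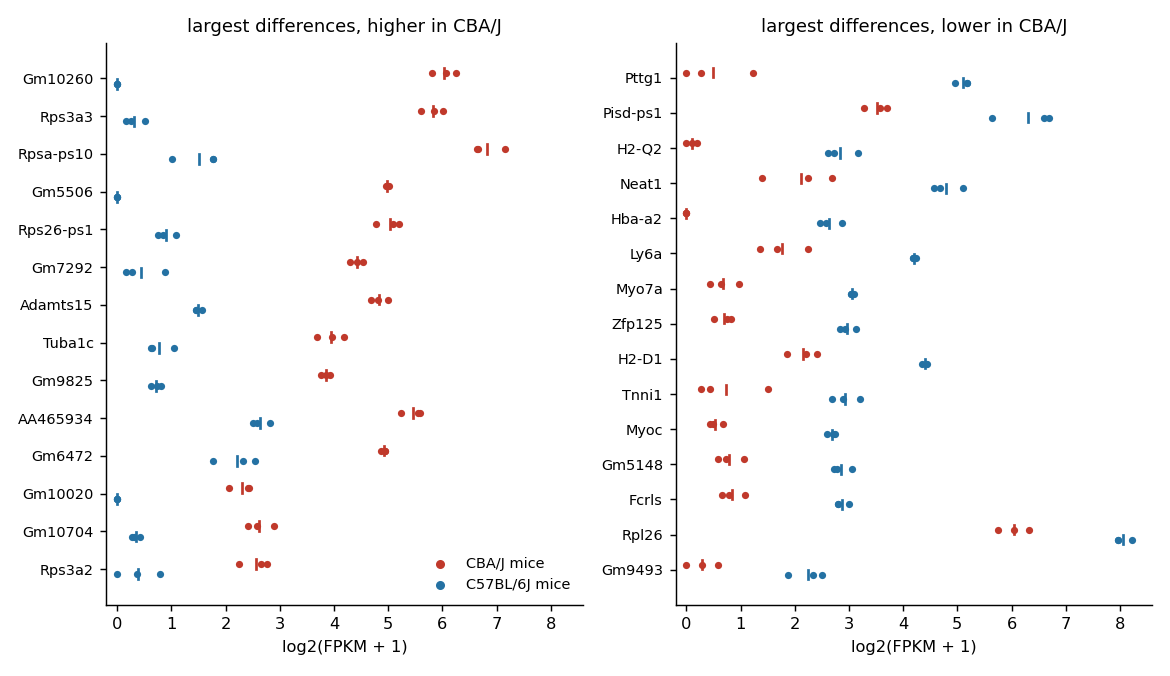
Points give log2(FPKM + 1) of each mouse of the 2 strains for genes among the 15 largest differences in each direction, taken from singly named genes whose 3 and 3 values do not overlap. Non-overlap was required by the choice of these genes, so the gaps between the strains are a description.

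Some of the large rises of copied genes came beside lower values of the genes they copy. Ribosomal protein genes have left many intronless copies in the mouse genome, and a short read from one can often be placed on another. Gm10260, a copy of Rps18 on chromosome 13, had 55.2, 65.7 and 75.003 FPKM in the CBA/J mice and was listed at 0 in all 3 C57BL/6J mice. Rps18, which codes for a protein of the small ribosomal subunit, had 48.3, 52.97 and 68.2 FPKM in CBA/J and 109, 106 and 108 FPKM in C57BL/6J. The log2 differences were 6.04 for Gm10260 (SE 0.36, adjusted p = 4.99e-36, limma) and -0.93 for Rps18 (SE 0.19, adjusted p = 0.000124). Added together, the pair gave 122 ± 20.05 FPKM in CBA/J and 107 ± 1.64 FPKM in C57BL/6J (SD, n = 3), and these sums overlapped between the strains.

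The copies of Rps7, another gene of the small ribosomal subunit, moved in opposite directions. Gm6472 on the X chromosome had 28.4, 29.7 and 29.8 FPKM in CBA/J and 2.43, 4.80 and 4.02 FPKM in C57BL/6J, a log2 difference of 2.71. Gm9493 on chromosome 19 had 0.492, 0 and 0.223 FPKM in CBA/J and 4.68, 2.65 and 4.02 FPKM in C57BL/6J, a log2 difference of -1.94. Rps7 itself was at 50.1, 50.96 and 67.97 FPKM in CBA/J and at 88.3, 70.2 and 82.3 FPKM in C57BL/6J, a log2 difference of -0.51 (SE 0.15, adjusted p = 0.0176, limma) that did not pass in a fit of the 6 mice alone or on leaving out replicate 1 or 2 of CBA/J or 1 or 3 of C57BL/6J. Together the 3 summed to 85.9 ± 10.6 FPKM in CBA/J and 87.8 ± 9.17 FPKM in C57BL/6J (SD, n = 3), a difference within the spread between mice.

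The sequences of these families are shown because so few bases separate the members whose values moved. Each is a stretch of 150 coding bases, 5′ to 3′, from the GENCODE M21 transcripts (GRCm38, the assembly of mm10), with capitals at each position where the members shown differ. The Rps7 stretch covers coding bases 14 to 163 of a gene at chr12:28630847-28635953 on the minus strand. The Gm6472 stretch lies at chrX:152909958-152910107 on the minus strand and differs from Rps7 at 3 positions, and the Gm9493 stretch at chr19:23619749-23619898 on the plus strand differs at 2.
Rps7: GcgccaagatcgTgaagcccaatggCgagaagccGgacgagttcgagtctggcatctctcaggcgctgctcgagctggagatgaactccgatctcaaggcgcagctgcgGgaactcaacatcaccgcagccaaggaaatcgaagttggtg
Gm6472: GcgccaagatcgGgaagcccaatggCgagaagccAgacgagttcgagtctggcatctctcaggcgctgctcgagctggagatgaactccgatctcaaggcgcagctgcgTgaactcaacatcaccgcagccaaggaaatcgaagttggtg
Gm9493: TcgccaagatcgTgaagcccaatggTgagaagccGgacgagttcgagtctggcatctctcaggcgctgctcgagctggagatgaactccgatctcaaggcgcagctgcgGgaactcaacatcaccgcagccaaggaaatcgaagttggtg
The Rps18 stretch covers coding bases 282 to 431 of a gene at chr17:33951999-33955717 on the minus strand, and the Gm10260 stretch lies at chr13:97760158-97760307 on the minus strand. They differ at 3 positions here and at 4 of the 456 coding bases compared.
Rps18: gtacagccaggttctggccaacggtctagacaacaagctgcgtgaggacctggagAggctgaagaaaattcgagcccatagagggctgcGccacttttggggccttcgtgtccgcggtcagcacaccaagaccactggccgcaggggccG
Gm10260: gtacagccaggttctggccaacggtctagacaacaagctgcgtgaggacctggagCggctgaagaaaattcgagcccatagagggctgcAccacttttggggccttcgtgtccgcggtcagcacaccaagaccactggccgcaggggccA
The Rpsa stretch covers coding bases 196 to 345 of a gene at chr9:120127766-120133713 on the plus strand, and the Rpsa-ps10 stretch lies at chr3:150073198-150073347 on the minus strand. They differ at 3 positions here and at 6 of the 885 coding bases compared.
Rpsa: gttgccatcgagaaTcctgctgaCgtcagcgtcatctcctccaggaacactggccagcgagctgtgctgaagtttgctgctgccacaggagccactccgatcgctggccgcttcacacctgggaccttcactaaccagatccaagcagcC
Rpsa-ps10: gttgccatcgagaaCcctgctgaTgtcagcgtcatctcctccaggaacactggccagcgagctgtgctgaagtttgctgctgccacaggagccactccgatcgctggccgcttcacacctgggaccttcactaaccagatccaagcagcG

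Rpsa, a ribosomal protein gene also known as the laminin receptor, and its copy Rpsa-ps10 did not keep a common sum. Rpsa-ps10 had 100.4, 98.5 and 141 FPKM in CBA/J and 2.40, 1.02 and 2.38 FPKM in C57BL/6J, a log2 difference of 5.30 (SE 0.32, adjusted p = 9.33e-35, limma). Rpsa had 60.6, 55.1 and 63.8 FPKM in CBA/J and 91.2, 75.7 and 80.9 FPKM in C57BL/6J, a difference of -0.46 that did not pass the test (adjusted p = 0.142). The pair summed to a mean of 173 FPKM in CBA/J and 84.5 FPKM in C57BL/6J, and these sums did not overlap. Rpsa-ps10 fell into a high and a low group of strains, with means of 108 FPKM in AKR/J, 112 in BUB/BnJ and 73.8 in DBA/2J and at most 3.80 FPKM in the other 5 strains set beside CBA/J and C57BL/6J below. The Rps3a family moved the other way, since Rps3a3 and Rps3a2 rose (log2 differences 5.51 and 2.17), Rps3a1 fell by 1.37 (SE 0.16, adjusted p = 1.57e-12), and the 3 together gave 133 ± 10.9 FPKM in CBA/J and 188 ± 12.4 FPKM in C57BL/6J (SD, n = 3).

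Pairs of this kind were not limited to ribosomal genes. Gm9825, a copy of the splicing regulator Rnps1, had a mean of 13.4 FPKM in CBA/J and 0.652 FPKM in C57BL/6J, while Rnps1 had 12.7 and 30.8 FPKM. Tuba1c, an alpha tubulin that shares much of its sequence with Tuba1b, had a mean of 14.6 FPKM in CBA/J and 0.726 FPKM in C57BL/6J, and Tuba1b had 56.2 and 77.5 FPKM (adjusted p = 0.0915, limma). Of the 15 genes, 10 had a copy partner among the genes tested. For 9 of these the partner had a log2 difference below 0, and 4 of those differences passed the test. The smallest was -0.10 for Rpl15, partner of Gm10020 (adjusted p = 0.667, limma). For the remaining one, Rps3a3 with Rps3a2, both rose. Over all 14079 genes tested, 6750 had a log2 difference below 0 and 4.27% passed as lower. The level of any single member of such a family is uncertain, since its reads can be placed on another member.

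**Figure D3:**
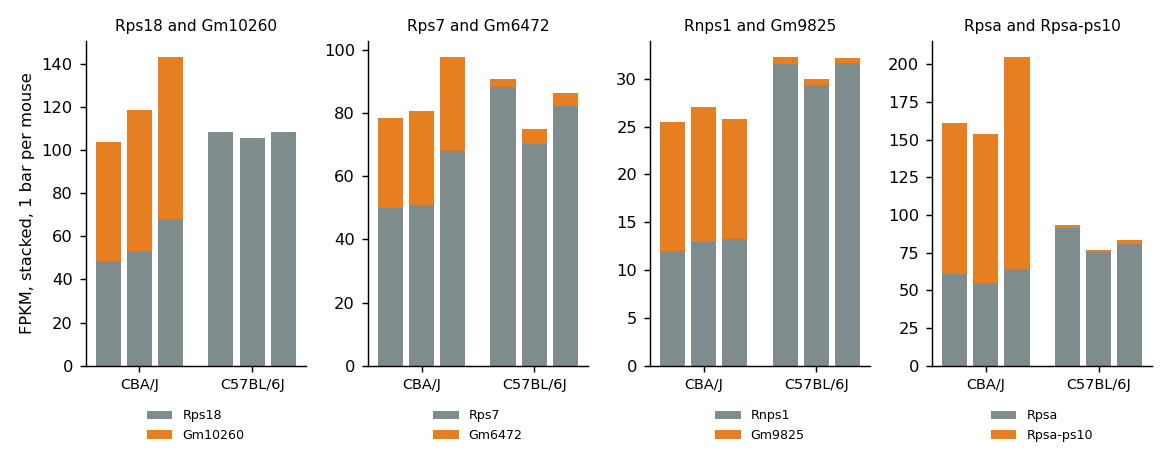
Stacked bars give, for each mouse, the FPKM of a gene and of its copy on a linear axis from 0, for 4 pairs. The bar heights of the strains overlap for Rps18 with Gm10260 and Rps7 with Gm6472, while the CBA/J bars are taller for Rpsa with Rpsa-ps10 and shorter for Rnps1 with Gm9825.

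The largest fall was that of Pttg1, securin, a regulator of the separation of sister chromatids at anaphase. Pttg1 (chr11:43420250-43426251) had 0, 1.35 and 0.197 FPKM in CBA/J and 35.3, 30.1 and 35.1 FPKM in C57BL/6J. The log2 difference was -4.61 (SE 0.31, adjusted p = 6.67e-31, limma), and none of its 50-base windows occurred in another gene. Neat1, the long noncoding RNA on which nuclear paraspeckles are built, had 5.44, 1.63 and 3.73 FPKM in CBA/J and 22.6, 24.6 and 33.6 FPKM in C57BL/6J. It fell by 2.68 (SE 0.23, adjusted p = 1.28e-20). Its chromosomal neighbour Malat1, chosen after its values were seen, had 461, 346 and 186 FPKM in CBA/J and 249.96, 329.9 and 268 FPKM in C57BL/6J, which overlap (adjusted p = 0.868).

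Ly6a, which codes for the surface antigen Sca-1, had 2.17, 3.76 and 1.56 FPKM in CBA/J and 17.2, 17.1 and 17.8 FPKM in C57BL/6J, a log2 difference of -2.44 (SE 0.23). Ly6e of the same family had a log2 difference of -0.48 (adjusted p = 0.00713, limma), which did not pass without CBA/J replicate 1 or in a fit of the 6 mice alone, and the other 6 of 8 Ly6 family genes did not pass. Several genes best known from other organs were lower in CBA/J too. Myo7a, a myosin of inner ear hair cells, had 0.956, 0.343 and 0.549 FPKM in CBA/J and 7.16, 7.57 and 7.20 FPKM in C57BL/6J. Myoc, known from the eye, averaged 0.446 FPKM against 5.44 FPKM, and Tnni1, the troponin of slow muscle, 0.798 FPKM against 6.67 FPKM. Pisd-ps1, a transcribed relative of a phosphatidylserine decarboxylase gene, averaged 10.6 ± 1.69 FPKM in CBA/J and 82.4 ± 29.5 FPKM in C57BL/6J (SD, n = 3). Rpl26, a protein of the large ribosomal subunit, averaged 65.4 FPKM in CBA/J and 265 FPKM in C57BL/6J. The haemoglobin gene Hba-a2 was listed at 0 in the 3 CBA/J mice and had 6.27, 4.94 and 4.53 FPKM in C57BL/6J. Hba-a1, which shares sequence with it, averaged 30.05 and 17.4 FPKM (adjusted p = 0.329), so the level of either gene is uncertain.

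Genes of the MHC were lower in CBA/J. Class I molecules carry peptides to the cell surface and pair with B2m. Of 19 measured MHC and antigen processing genes, 6 fell and 0 rose, where 4.27% of all genes tested fell. Their median log2 difference was -0.39 against 0.01 over all genes. The count that fell was 3 or 4 when any 1 of the 6 mice was left out. H2-D1 (chr17:35262730-35267604), a classical class I heavy chain, had 2.61, 3.62 and 4.30 FPKM in CBA/J and 19.4, 20.6 and 20.4 FPKM in C57BL/6J. It fell by 2.24 (SE 0.23, adjusted p = 2.33e-16, limma). H2-K1, the other classical heavy chain, had 6.56, 4.52 and 3.87 FPKM in CBA/J and 16.2, 14.5 and 13.1 FPKM in C57BL/6J. B2m, which lies outside the H2 region on chromosome 2, had 37.6, 42.5 and 44.2 FPKM in CBA/J and 66.5, 68.1 and 67.8 FPKM in C57BL/6J, a log2 difference of -0.69 (SE 0.23, adjusted p = 0.0395). The others that fell were H2-Q2, H2-T22 and H2-T24, with log2 differences of -2.73, -0.64 and -0.59. The class II gene H2-Eb1 had 0.337, 0.302 and 0.276 FPKM in CBA/J and 1.06, 1.72 and 2.57 FPKM in C57BL/6J and did not pass (adjusted p = 0.078). Of 18 interferon-stimulated genes 1 fell, Xaf1, with a log2 difference of -0.88, and none rose. Without CBA/J replicate 2 or C57BL/6J replicate 2, or in a fit of the 6 mice alone, Xaf1 did not pass either.

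Of the 10 strains compared here, H2-D1 was lowest in the 3 known to carry the k haplotype. CBA/J, C3H/HeJ and AKR/J had means of 3.51, 4.27 and 3.98 FPKM (n = 3 each). In C57BL/6J and the other 6 strains the means ran from 15.1 FPKM in A/J to 56.5 FPKM in BUB/BnJ. For H2-K1 the lowest means were 4.79 FPKM in A/J, 4.99 in CBA/J, 5.55 in C3H/HeJ, 6.45 in AKR/J and 7.88 in BALB/cJ. These strains were grouped by haplotype after the values were seen, and how well reads of another haplotype were placed on the reference was not tested.

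All 3 chains of C1q were lower in CBA/J. C1q starts the classical complement cascade and in brain is made mainly by microglia, and C1qa, C1qb and C1qc lie side by side on chromosome 4. C1qb had 7.75, 7.62 and 4.15 FPKM in CBA/J and 21.6, 19.8 and 23.4 FPKM in C57BL/6J. C1qc had 6.45, 7.002 and 6.16 FPKM in CBA/J and 25.9, 22.4 and 22.7 FPKM in C57BL/6J. C1qa had 15.7, 10.9 and 8.22 FPKM in CBA/J and 22.6, 21.8 and 19.5 FPKM in C57BL/6J. The strains did not overlap for any of the 3 chains. The log2 differences were -0.86 for C1qa (SE 0.20, adjusted p = 0.00123), -1.63 for C1qb (SE 0.22, adjusted p = 3.2e-10) and -1.71 for C1qc (SE 0.19, adjusted p = 1.3e-13, limma). Of 13 complement and acute phase genes, 4 fell, the C1q chains among them, and 1 rose, C4a (log2 difference 1.13). Over all genes tested, 4.27% fell and 3.08% rose. C4a lost its call without CBA/J replicate 2 and in a fit of the 6 mice alone, which did not call C1qa either, and without CBA/J replicate 3 the count of falls was 2.

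The promoters of C1qb and C1qc are shown because these neighbours moved together. Each is the 250 bases before the RefSeq start site (GRCm38.p6), C1qb at chr4:136886201-136886450 and C1qc at chr4:136892915-136893164, both on the minus strand, written 5′ to 3′ along the gene. Capitals mark ACTTCCT, the reverse complement of AGGAAGT, a core bound by ETS factors such as PU.1 of myeloid cells.
C1qb: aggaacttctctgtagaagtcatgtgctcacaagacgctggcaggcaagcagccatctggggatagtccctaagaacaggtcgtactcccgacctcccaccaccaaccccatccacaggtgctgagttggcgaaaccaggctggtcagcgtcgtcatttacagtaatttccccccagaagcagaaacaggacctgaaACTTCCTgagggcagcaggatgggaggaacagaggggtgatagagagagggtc
C1qc: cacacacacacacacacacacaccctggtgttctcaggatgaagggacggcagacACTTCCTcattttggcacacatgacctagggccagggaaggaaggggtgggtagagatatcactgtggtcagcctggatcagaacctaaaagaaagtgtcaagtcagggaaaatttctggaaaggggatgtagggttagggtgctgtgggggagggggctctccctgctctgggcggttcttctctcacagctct
Each holds 1 match on either strand, and 7.69% of 32851 promoter windows of this length hold one.

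Of 10 microglial markers 5 fell and 0 rose, with a median log2 difference of -0.51, where 4.27% of all genes tested fell. Cx3cr1, the fractalkine receptor, had 7.74, 7.34 and 4.52 FPKM in CBA/J and 9.64, 10.8 and 9.61 FPKM in C57BL/6J, a log2 difference of -0.57 (SE 0.10, adjusted p = 3.18e-06, limma). The other falls were of Csf1r, the receptor on which microglia depend for survival, the integrin Itgam, the lipid receptor Trem2 and Siglech, with log2 differences of -0.49, -0.84, -0.94 and -0.63. The purinergic receptor P2ry12, with 0.930, 4.75 and 3.61 FPKM in CBA/J and 2.75, 3.09 and 1.45 FPKM in C57BL/6J, overlapped between strains. CBA/J replicate 3 was the lowest of the 6 mice for Cx3cr1, Csf1r, Itgam and Siglech, and without it 3 markers fell. A fit of the 6 mice alone called 0 of the 10. Fcrls, an Fc receptor-like gene of microglia outside the list, had 1.11, 0.583 and 0.716 FPKM in CBA/J and 5.92, 7.03 and 5.99 FPKM in C57BL/6J.

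Of 14 oligodendrocyte markers 9 fell and 0 rose, with a median log2 difference of -0.50, and the strains did not overlap for 13 of the 14. Over all genes tested, 4.27% fell and 22.3% did not overlap. Mal, a myelin proteolipid, had 43.5, 33.4 and 41.97 FPKM in CBA/J and 68.8, 78.3 and 71.3 FPKM in C57BL/6J, a log2 difference of -0.87 (SE 0.19, adjusted p = 0.000522, limma). Cldn11, which seals the layers of myelin, had 50.1, 43.8 and 52.7 FPKM in CBA/J and 75.6, 77.9 and 77.6 FPKM in C57BL/6J. Sox10, a transcription factor of the lineage, had 16.1, 14.3 and 16.1 FPKM in CBA/J and 24.7, 22.3 and 25.4 FPKM in C57BL/6J. These 3 genes separated the strains in every mouse. Mog, Mag, Mobp, Cnp, Opalin and Olig1 fell too, with log2 differences from -0.66 to -0.43. Mbp, the major basic protein of myelin, did not pass. It had 1154, 939.8 and 1126 FPKM in CBA/J and 1247, 1324 and 1344 FPKM in C57BL/6J (adjusted p = 0.356). Olig2, which marks the whole lineage, differed by 0.07 (adjusted p = 0.878), and 0 of 4 precursor markers passed.

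The summed level of the 14 markers was 2290.1, 1904 and 2285 FPKM in CBA/J and 2718, 2929 and 2924 FPKM in C57BL/6J, lowest in CBA/J replicate 2. The count of 9 ranged from 4 to 9 when 1 mouse was left out, lowest without CBA/J replicate 2, and was 5 without C57BL/6J replicate 2 and 5 in a fit of the 6 mice alone. Pituitary and thalamus sums, given above, were higher in the CBA/J mice, and their part in these differences was not tested. The 6 ependymal markers, genes of the ciliated lining of the ventricles, all had log2 differences below 0, with a median of -0.51, and 2 fell, Foxj1 (-0.49) and Rarres2 (-0.79). Neither passed without CBA/J replicate 1 or in a fit of the 6 mice alone. Of 10 astrocyte markers 1 fell, Aldh1l1 (log2 difference -0.39), a call that was lost without CBA/J replicate 2 and in a fit of the 6 mice alone. Of 9 endothelial markers 1 fell, the glucose transporter Slc2a1 (log2 difference -0.50), and it did not pass when any of the mice other than CBA/J replicate 1 was left out. None of 4 tanycyte markers passed.

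**Figure D4:**
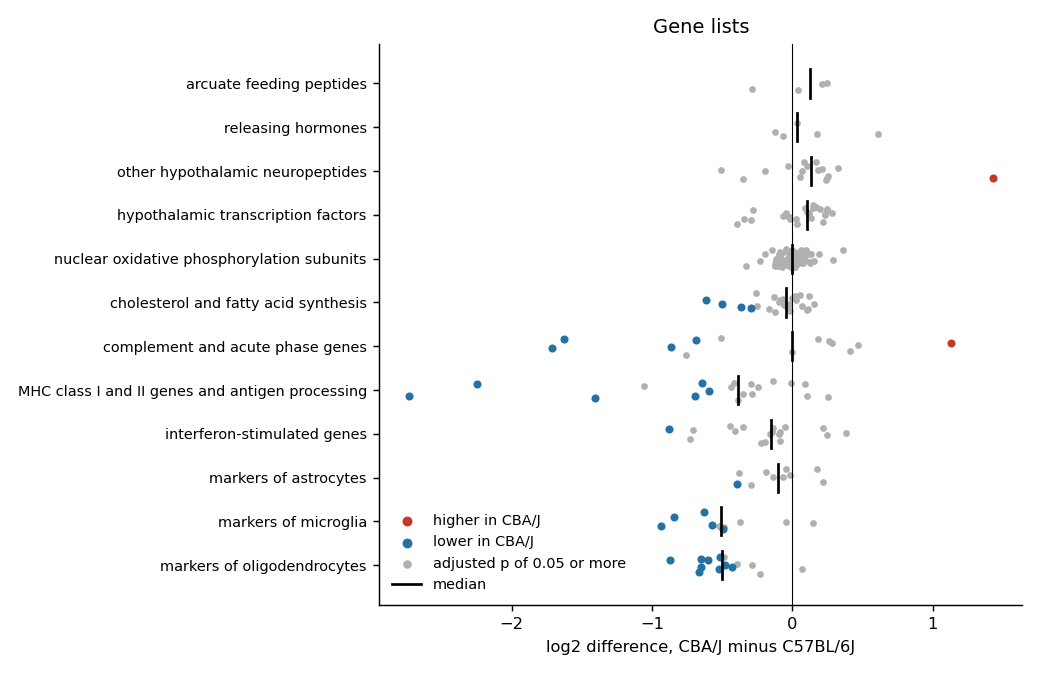
Each point is the log2 difference, CBA/J minus C57BL/6J, of 1 measured gene, grouped by list, with those that passed the test coloured and each list's median marked. The medians of oligodendrocyte, microglial and MHC genes lie at -0.50, -0.51 and -0.39, and that of respiratory chain subunits at -0.01.

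Genes of the peptides that define hypothalamic neurons showed 1 called difference, where 7.35% of all genes tested were called. None of 4 arcuate, 2 magnocellular, 2 lateral hypothalamic and 5 releasing hormone genes passed. Npy had 7.92, 14.5 and 22.7 FPKM in CBA/J and 22.6, 14.3 and 15.3 FPKM in C57BL/6J (log2 difference -0.29, SE 0.26, adjusted p = 0.661, limma). Pomc had 12.1, 71.4 and 28.6 FPKM in CBA/J and 31.5, 21.4 and 21.998 FPKM in C57BL/6J, and the pituitary makes Pomc too. The strains overlapped for both genes. Hcrt had 95.2, 84.9 and 143 FPKM in CBA/J and 217, 155 and 155 FPKM in C57BL/6J, which did not overlap but missed the threshold (log2 difference -0.72, SE 0.28, adjusted p = 0.108), and 1 of the lateral hypothalamic genes passed as lower without CBA/J replicate 3. The called gene, 1 of 16 other neuropeptide genes, was Npvf, which codes for RFamide peptides that restrain gonadotropin release. Npvf had 10.02, 5.67 and 12.1 FPKM in CBA/J and 1.57, 2.56 and 4.37 FPKM in C57BL/6J, a log2 difference of 1.43 (SE 0.33, adjusted p = 0.000721), and a fit of the 6 mice alone did not call it.

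Each list of energy balance or acute state genes held at most 1 called gene, where 7.35% of all genes tested were called. Of 34 receptor and leptin and insulin signalling genes 1 rose, the locus that joins Jak2, the kinase of the leptin receptor, with Rcl1 (log2 difference 0.20, adjusted p = 0.03, limma). That call was lost under median centring, quantile normalization, the fits of the 6 mice and of the classical strains, and without replicate 1 or 2 of either strain. Of 20 clock genes 1 rose, Nr1d1, a repressor of the clock, with means of 47.1 and 37.6 FPKM (log2 difference 0.32, adjusted p = 0.0262). Nr1d1 did not pass without C57BL/6J replicate 2, CBA/J replicate 2 or CBA/J replicate 3, nor in a fit of the 6 mice alone, while a fit of the classical strains called 3 clock genes higher and 1 lower. None of 17 immediate early, 15 glucocorticoid-responsive and 20 endoplasmic reticulum stress genes passed, although without CBA/J replicate 3 an immediate early gene was called lower, and in a fit of the 6 mice alone an endoplasmic reticulum stress gene was called higher. Of 14 heat shock chaperones 1 fell, Cryab, with a log2 difference of -0.71, and it did not pass without C57BL/6J replicate 1 or 3 or CBA/J replicate 1 or 2. None of 25 hypothalamic transcription factors, 9 thyroid hormone genes and 72 nuclear subunits of the respiratory chain passed, the last spanning log2 differences from -0.33 to 0.36.

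Among 27 genes of lipid synthesis 4 fell and 0 rose, with a median log2 difference of -0.04, where 4.27% of all genes tested fell. Sc5d, which catalyses a late step of cholesterol synthesis, had 15.8, 16.4 and 14.8 FPKM in CBA/J and 22.8, 26.7 and 23.98 FPKM in C57BL/6J, a log2 difference of -0.61 (SE 0.11). Insig1, a regulator of sterol synthesis, Cyp51 of the same pathway and the desaturase Scd1 had log2 differences of -0.50, -0.37 and -0.30. The count was 2 without CBA/J replicate 2 or C57BL/6J replicate 3 and in a fit of the 6 mice alone. Srd5a1, the steroid 5-alpha-reductase and the called gene among 6 of the steroid list, had 1.79, 2.21 and 2.81 FPKM in CBA/J and 4.18, 4.43 and 4.34 FPKM in C57BL/6J, a log2 difference of -0.71 (SE 0.10, adjusted p = 6.22e-09, limma).

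Of 18 genes known to vary among laboratory strains 7 were higher and 5 lower, a count that their choice makes no independent evidence. Nnt, the mitochondrial transhydrogenase of which C57BL/6J is known to lack exons, had 9.75, 9.54 and 9.20 FPKM in CBA/J and 5.997, 5.95 and 6.05 FPKM in C57BL/6J, a log2 difference of 0.58 (SE 0.08, adjusted p = 1.6e-09, limma). The locus of Gabra2 and Gabrg1, subunits of the GABA-A receptor, had 56.4, 56.8 and 47.7 FPKM in CBA/J and 35.4, 35.04 and 32.5 FPKM in C57BL/6J, and was the called one of 13 GABA-A loci. C57BL/6J is known to carry a small intronic deletion in Gabra2. Glo1, which detoxifies methylglyoxal and is known to be duplicated in some inbred strains, had 62.4, 58.7 and 68.4 FPKM in CBA/J and 31.8, 37.5 and 34.3 FPKM in C57BL/6J, and Btbd9 beside it had a log2 difference of 0.48.

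Alad, an enzyme of haem synthesis, had 41.98, 36.9 and 44.6 FPKM in CBA/J and 15.6, 17.9 and 15.5 FPKM in C57BL/6J, and Hdhd3 beside it on chromosome 4 rose as well (log2 differences 1.28 and 1.46). Copa, a coat protein of Golgi vesicles on chromosome 1, had 45.1, 46.05 and 45.5 FPKM in CBA/J and 68.7, 68.01 and 68.3 FPKM in C57BL/6J, a separation many times the spread within a strain (log2 difference -0.58, SE 0.06, adjusted p = 1.58e-15, limma). Among 26 imprinted loci 1 rose, Ndn, which lies in the Prader-Willi region, with 339, 358 and 386 FPKM in CBA/J and 278, 218 and 197 FPKM in C57BL/6J, and 1 fell, Sgce (log2 difference -0.30). Neither passed in a fit of the 6 mice alone, and Sgce passed on leaving out CBA/J replicate 3 but no other mouse.

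Called genes lay on every chromosome. Of the 14079 genes tested, 12524 had a position in the assembly, and only these entered the shares given here. The share ran from 3.37% of 445 genes on the X chromosome and 3.74% of 615 on chromosome 10 to 10.4% of 473 on chromosome 12 and 12.9% of 566 on chromosome 17, which holds the H2 region, leaving aside the 6 genes of the Y chromosome. In windows of 10 Mb with at least 10 genes, the highest share was 3 of 11 genes at 140 to 150 Mb of chromosome 1, followed by 7 of 28 at 20 to 30 Mb and 4 of 16 at 90 to 100 Mb of chromosome 12. The window with much of H2, 30 to 40 Mb of chromosome 17, held 25 called genes of 131, where 7.35% of all genes tested were called. No gene was called in 33 of 258 windows, of which that at 40 to 50 Mb of chromosome 7, with 95 genes, held the most.

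Set against 7 other classical strains (DBA/2J, A/J, BALB/cJ, AKR/J, 129X1/SvJ, BUB/BnJ and KK/HlJ, 21 mice), CBA/J differed at 847 genes (6.02% of those tested) and C57BL/6J at 1027 (7.29%). Against C3H/HeJ, which comes from the same early cross, CBA/J differed at 330 genes (2.34%). These comparisons use the same CBA/J or C57BL/6J mice as the first, so each gene's values are given side by side and are not independent of it. Adamts15 was higher in CBA/J than in the 7 strains by 2.81 on the log2 scale (adjusted p = 9.7e-52, limma) and than in C3H/HeJ by 2.55, and C57BL/6J differed from the 7 strains by -0.53. CBA/J ranked 1 and C57BL/6J 25 of the 25 classical inbred strains of the panel for it. Neat1 differed from the 7 strains by -2.36 in CBA/J and by 0.31 in C57BL/6J, the latter without passing (adjusted p = 0.348), and CBA/J differed from C3H/HeJ by -2.42. DBA/2J, at 5.52 ± 1.27 FPKM (SD, n = 3), was the next lowest of these strains.

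Other genes set C57BL/6J further from the 7 strains than CBA/J. Pttg1 differed from them by 3.53 in C57BL/6J (adjusted p = 2.1e-31, limma) and by -1.07 in CBA/J, the 7 means lying between 0.818 and 4.99 FPKM. Fcrls differed by 1.96 in C57BL/6J and by -0.06 in CBA/J, the latter without passing (adjusted p = 0.879). Tnni1 differed by 2.28 in C57BL/6J, with BALB/cJ next at 3.03 FPKM. Nnt, the Gabra2 locus and Ndn differed by -0.70, -0.57 and -0.64 in C57BL/6J, which ranked 25 of 25 for each. For C1qc the 7 means lay between, from 10.9 to 16.9 FPKM, so that CBA/J differed from them by -0.91 and C57BL/6J by 0.80. Cx3cr1 and Csf1r differed by -0.50 and -0.54 in CBA/J, and by 0.07 and -0.05 in C57BL/6J without passing. The other called microglial markers were mixed. The 7 means of Itgam ran from 1.57 to 3.41 FPKM, with CBA/J inside at 2.06 FPKM and C57BL/6J above at 4.47 FPKM. Those of Trem2 ran from 2.92 to 5.33 FPKM, with CBA/J below at 1.94 FPKM and C57BL/6J inside at 4.68 FPKM. Those of Siglech ran from 3.15 to 4.98 FPKM, with CBA/J below at 2.91 FPKM and C57BL/6J just above. Of the 9 oligodendrocyte genes lower in CBA/J than in C57BL/6J, 4 passed as lower in CBA/J than in the 7 strains, Cldn11, Mal, Mog and Cnp, with log2 differences of -0.44, -0.45, -0.45 and -0.31, and C57BL/6J differed by 0.21, 0.42, 0.21 and 0.12 without passing. Another 2 passed as higher in C57BL/6J, Sox10 and Olig1, by 0.48 and 0.44, with -0.12 and -0.03 in CBA/J without passing. Mag, Mobp and Opalin passed in neither.

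**Figure D5:**
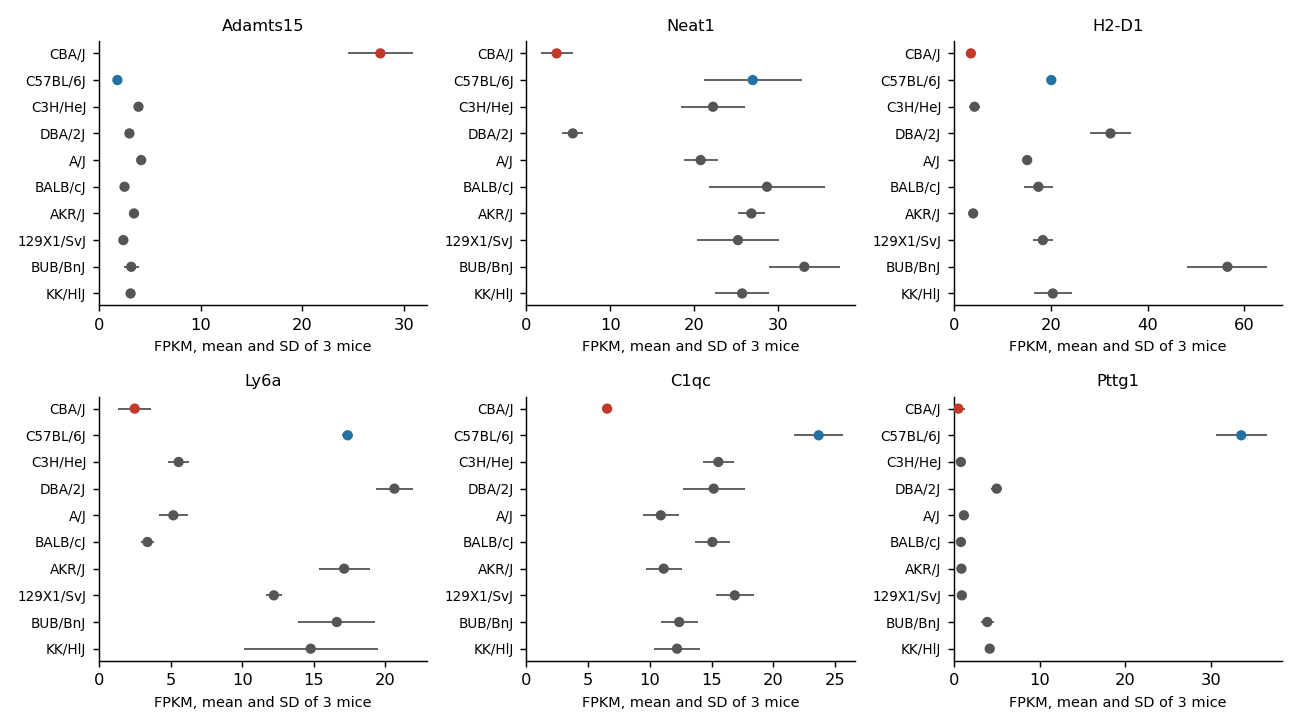
Points are the mean FPKM of 3 mice per strain with bars of 1 SD for selected genes in CBA/J, C57BL/6J and the other 8 strains compared. CBA/J stands apart for Adamts15 at 27.7 FPKM and C57BL/6J for Pttg1 at 33.5 FPKM, while H2-D1 is low in CBA/J, C3H/HeJ and AKR/J.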

How the data were processed

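The authors placed 50-base paired-end reads of hypothalamus RNA on mm10 using STAR (2.3.1), built transcripts using Cufflinks (2.2.0) and deposited FPKM from Cuffnorm (2.2.1), versions being those of the submitters' processing notes. The deposited gene rows all exceed 0 FPKM in 100 or more mice and 1 FPKM in 50 or more, so genes of lower level are not analysed here, and read depth cannot be recovered from FPKM. In the study's library list, counted from the fewest read pairs among 281 mice, CBA/J replicates 1 to 3 ranked 3, 15 and 147. C57BL/6J replicates 1 to 3 ranked 186, 38 and 123. With read number and mapping as covariates 1069 genes were called, and the part of depth in values at or near 0 was not tested. The FPKM of the 6 mice summed to between 327396 and 352807. Replicates are numbered in accession order, and labels describe 1 mouse per sample. The p-values therefore rest on the spread between mice within strains, pooled over all strains of the fit.

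From these values, log2(FPKM + 1) was fitted with limma 3.58.1 (R 4.3.3), with a mean per strain over 281 mice. The 1 mouse whose title and strain label name different strains was left out. Contrasts were adjusted by Benjamini-Hochberg over all 14079 gene rows with a threshold of 0.05. The scripts were tested on simulated data. Fold changes on the log2(FPKM + 1) scale understate those of low genes. Named genes were the 15 largest called differences in each direction among non-overlapping genes at loci with 1 name, and members of gene lists, and others are said to be chosen after their values were seen. Members and lists were chosen with earlier results of these data known. Shared sequence was counted as 50-base windows of GENCODE M21 transcripts that occur in another gene. Alternatives were pseudocounts of 0.1 and 0.01, a filter at a mean FPKM of 1, quantile normalization, median centring, other sets of strains, covariates of read number and mapping from the study's library list, a variance trend with robust estimation, and leaving out each mouse. Some genes of the lists and of the largest differences are not reported here, though they are counted.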

Additional observations from a re-analysis of the deposited data

How the results depend on the processing

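The count of 1035 genes that differ between CBA/J and C57BL/6J fell to 425 (187 higher, 238 lower) when the 6 mice were fitted alone, a fit that estimates the spread from fewer mice. It ranged from 747 to 1037 when any 1 of the 6 mice was left out, and stayed within 1.5 times of 1035 under every other alternative run, the highest being 1475 for a fit of the 25 classical inbred strains alone. Of the called genes among those named, 65 passed the test under every alternative and 0 changed direction. Of 1616 values of such genes over all alternatives, 143 no longer passed, 29 of them in the fit of the 6 mice alone. No paired analysis was possible because replicate numbers follow accession order and pair no mice. FPKM hold no read counts per gene, so counting error at low levels was not given, and the study's read numbers per library entered only as covariates and as the ranks given above.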
